A study of Homo sapiens with 5 samples.

Results

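The genes described here encode 6 proteins of the striatin-interacting phosphatase and kinase complex (STRIPAK): STRN, STRN3, STRN4, CTTNBP2NL, FGFR1OP2 and STK24. They were taken by gene symbol, with earlier results of these data known, and all 6 were found among the 10615 genes of the table. Each gene was represented by its RefSeq transcript row with the highest mean over the libraries.

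Striatins are a class of regulatory subunits of the phosphatase PP2A. They act as scaffolds that hold the PP2A core enzyme next to kinases of the GCKIII family, of which STK24 is one, so that a phosphatase and its kinase targets sit in one assembly. Alternative modules join the same core. One is built around SIKE1 or its relative FGFR1OP2 together with SLMAP, and the other around the cortactin-binding relatives CTTNBP2 and CTTNBP2NL. STRIPAK is best known for keeping the Hippo kinases STK3 and STK4 dephosphorylated, which favours YAP1 activity.

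The study sequenced polyadenylated RNA of MDA-MB-231, an established cell line from a human breast cancer of the triple-negative kind, with mesenchymal traits, to ask how expression differs when inhibitors of PP2A are silenced or antagonised. The inhibitors are SET and CIP2A, both of which restrain PP2A activity. Cells of the siNT library received a control siRNA for 48 h and those of siSET an siRNA against SET for 48 h. Cells of siCIP2A received an siRNA against CIP2A, for which the general protocol gives 48 h and the library's own label no time. The PBS library is the vehicle control at 12 h, and OP449, an antagonist of SET, was given at 1 µM for 12 h. All groups share the same cell line and medium, none is untreated, and the sources used here do not say how many siRNAs were used or give their sequences. There was 1 library per group, so conditions could not be tested against each other and nothing below has a replicate check.

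Over the gene table the libraries held 3646713 to 5610894 reads, the fewest in siSET and the most in siCIP2A. Levels are scaled counts, the authors' read counts on a common scale, on which 1 read is worth the most, 1.71, in siSET. The markers expected to be high in the line were present: VIM stood at 15670 to 20866 scaled counts, CD44 at 13820 to 20560 and AXL at 15393 to 18128. KRT18 stood at 2032 to 2965 and ZEB1 at 761 to 908. Those expected to be low or absent were CDH1, PGR, ERBB2 and GATA3. The epithelial cadherin gene CDH1 stood at 12.9 to 56.7, and the progesterone receptor gene PGR had no read in any library, which allows up to 3.31 to 5.13 scaled counts. The receptor gene ERBB2 stood at 1049 to 1179, above ZEB1, and GATA3 at 133 to 250, so neither of these was absent. Of the 4 measured markers of other cell types, PTPRC, PECAM1 and CDH5 did not exceed 9.02, and the collagen gene COL1A1 ran from 73.7 in PBS to 162 in siNT. The part of COL1A1, or of the shallower siSET library, in the differences below was not tested. SET and CIP2A themselves were not analysed here, so the knockdowns were not checked on their target genes.

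On hg19 the transcript rows used span these whole genes, exons and introns together. STRN (NM_003162) lies on chromosome 2 from 37075473 to 37193615 on the minus strand. STRN3 (NM_001083893) lies on chromosome 14 from 31363005 to 31495607, minus strand, and STRN4 (NM_001039877) on chromosome 19 from 47222770 to 47249720, minus strand. CTTNBP2NL (NM_018704) lies on chromosome 1 from 112938800 to 113003785, plus strand. FGFR1OP2 (NM_015633) spans chromosome 12 from 27091305 to 27119581, plus strand, and STK24 (NM_001032296) chromosome 13 from 99102455 to 99229396, minus strand. STRN and CTTNBP2NL had 1 row each, STRN3, STRN4 and STK24 had 2, and FGFR1OP2 had 3. The STK24 rows start at different places and differed by 15 to 21 reads per library.

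For STRN3, STRN4 and FGFR1OP2 a second row with the same ends differs from the one used by coding sequence that one transcript includes and the other skips. These stretches are shown because the difference in reads between such rows gives a view of splicing at a known stretch. They were read from the GENCODE 29 transcripts matched to the accessions, on GRCh38, and each is written 5′ to 3′ on the strand of the gene. Every one keeps the reading frame.
STRN3, the first skipped exon, chr14:30929201-30929311 on the minus strand: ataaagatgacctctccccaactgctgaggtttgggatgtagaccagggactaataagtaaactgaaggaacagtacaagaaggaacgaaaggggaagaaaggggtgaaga
STRN3, the second skipped exon, chr14:30918966-30919106 on the minus strand: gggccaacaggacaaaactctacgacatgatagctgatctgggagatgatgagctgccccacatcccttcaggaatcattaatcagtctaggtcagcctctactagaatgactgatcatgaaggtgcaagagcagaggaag
STRN4, the optional stretch, chr19:46727547-46727567 on the minus strand: gttcctttggcttctcctcag
FGFR1OP2, the skipped exon, chr12:26960515-26960628 on the plus strand: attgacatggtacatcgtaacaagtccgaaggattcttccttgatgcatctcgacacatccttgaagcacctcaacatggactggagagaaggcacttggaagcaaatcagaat

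The STRN3 exons, 111 and 141 bases long, held 10 reads in PBS, 9 in OP449, 18 in siNT, 6 in siSET and 8 in siCIP2A. As a share of the STRN3 row that was 4.40% in siNT (95% exact Clopper-Pearson interval 2.63 to 6.87%), 2.37% in siSET (0.875 to 5.09%), 2.82% in siCIP2A (1.22 to 5.47%), 2.99% in PBS (1.44 to 5.44%) and 2.66% in OP449 (1.22 to 4.99%). The intervals of all 5 libraries overlap, so a difference in exon use was not detectable at this depth. Over the 5 libraries together the exons held 51 of 1618 reads, or 3.15% (2.36 to 4.12%), against 9.0% of the length of the matched GENCODE transcript that includes them. That transcript is the shorter of the matched pair, so the share of length is also given with the skipping transcript plus the exons as the length, which was 5.97%. The sources used here do not say how reads across exon junctions were counted, and such reads weigh most on short exons.

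The FGFR1OP2 exon of 114 bases held 11 reads in PBS, 13 in OP449, 5 in siNT, 10 in siSET and 9 in siCIP2A. Together these were 48 of 1027 reads, or 4.67% (3.47 to 6.15%), against 3.9% of the including transcript and 3.93% on the second basis. The STRN4 stretch of 21 bases held 1 to 3 reads per library and 8 of 7266 in all, or 0.110% (0.0475 to 0.217%), against 0.579% and 0.650%. The pooled share thus lay below the share of length on either basis for STRN3 and STRN4, while for FGFR1OP2 the interval spans both. Reads carry no molecular identifiers, so every interval here covers counting error only.

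**Figure D1:**
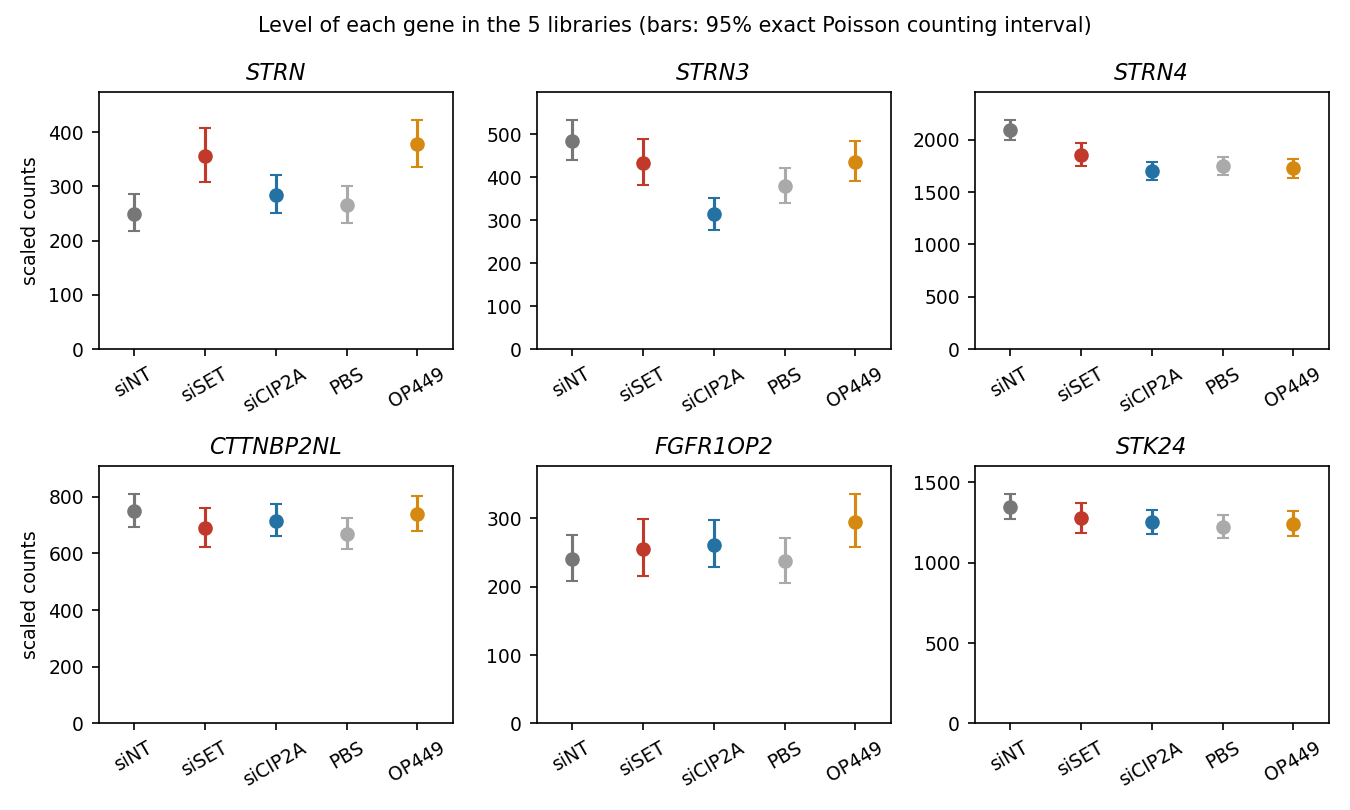
Level of each of the 6 genes in scaled counts (y axis, from 0) in the 5 libraries (x axis). Each point is 1 library and the bars are 95% exact Poisson counting intervals. STRN is highest in OP449 (377) and siSET (356), STRN3 is lowest in siCIP2A (314), and STK24 and CTTNBP2NL stay nearly level.

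STRN encodes striatin, the founding scaffold of the family. It stood at 265 scaled counts in PBS, 377 in OP449, 250 in siNT, 356 in siSET and 285 in siCIP2A, from 208 to 293 reads. The siSET and OP449 libraries were the high ones, and both control libraries were the lowest. In the order of the libraries from siNT through PBS, siCIP2A and siSET to OP449, the step from siCIP2A to siSET had a counting interval that excludes equality, and the other neighbours did not differ beyond counting error. The highest level was 1.51-fold the lowest, a range larger than that of 74.9% of the 6110 genes with a mean of at least 50 scaled counts. In bulk RNA a lower level per cell and a smaller share of expressing cells cannot be told apart.

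STRN3 encodes striatin-3, a scaffold close in sequence to striatin. It stood at 379 scaled counts in PBS, 435 in OP449, 485 in siNT, 433 in siSET and 314 in siCIP2A, from 253 to 409 reads. The siCIP2A library was the lowest and siNT the highest, while siSET and OP449 lay between them within 3 scaled counts of each other. Among neighbours in that order, PBS exceeded siCIP2A with an interval that excludes equality. The range of 1.55-fold was the widest of the 6 genes and exceeded that of 77.9% of genes.

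STRN4 encodes striatin-4, also called zinedin. It stood at 1745 scaled counts in PBS, 1725 in OP449, 2092 in siNT, 1858 in siSET and 1697 in siCIP2A. The siNT library stood above the rest, and the step down to siSET was the only one between neighbours with an interval that excludes equality. The range was 1.23-fold. Per kb of transcript, with lengths from GENCODE 29, the mean level over the libraries was 503 to 568 scaled counts for STRN4, 103 to 146 for STRN3 and 37.5 for STRN, where a span reflects the shortest and longest matched transcript. STRN4 was thus the most abundant of the striatin transcripts in this line under either length. Coverage along a transcript after oligo-dT priming was not measured here.

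Of the module proteins, CTTNBP2NL, which binds cortactin and brings striatins to actin fibres, stood at 669 scaled counts in PBS, 738 in OP449, 749 in siNT, 689 in siSET and 716 in siCIP2A. No 2 neighbouring libraries differed beyond counting error, and 5.22% of genes had a smaller range. FGFR1OP2 stood at 237 in PBS, 295 in OP449, 241 in siNT, 255 in siSET and 262 in siCIP2A. Its OP449 library was the highest, but no neighbours in the order differed beyond counting error. The kinase gene STK24 stood at 1224 in PBS, 1242 in OP449, 1347 in siNT, 1276 in siSET and 1252 in siCIP2A. It was the steadiest of the 6 genes, and 2.95% of genes had a smaller range. Per kb the mean level was 121 for CTTNBP2NL, 88.2 to 270 for FGFR1OP2 and 135 to 509 for STK24. The FGFR1OP2 row used matches the longest transcript, so 88.2 is its value. The 270 sets its counts against the length of another isoform. The place of STK24 in the order depends on which transcript length applies.

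Differences between 2 libraries are given as log2 folds on log2(scaled counts + 1), with the 95% exact counting interval of the ratio in brackets. A gene was called when its higher library exceeded its lower one by at least 25% and the pair averaged at least 50 scaled counts. All 6 genes passed this floor in every comparison.

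The comparison of siSET with siNT asked what differs when SET is silenced. STRN was 1.42-fold higher in siSET, at 0.51 [0.23 to 0.79], from 208 reads against 211 in the deeper siNT library. It was the 1 member called higher, where 11.9% of all 6101 genes were called higher, and 95.6% of genes had a lower fold. No member was called lower, where 13.0% of genes were. STRN4 stood at -0.17 [-0.28 to -0.06], STRN3 at -0.16 [-0.40 to 0.07], CTTNBP2NL at -0.12 [-0.30 to 0.06], STK24 at -0.08 [-0.21 to 0.06] and FGFR1OP2 at 0.08 [-0.23 to 0.40]. The median of the members was -0.10, against 0.01 over all genes.

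Beside PBS, which differs from siSET in time as well as in treatment, STRN in siSET stood at 0.42 [0.15 to 0.70]. STRN4, STRN3, STK24 and CTTNBP2NL stood at 0.09, 0.19, 0.06 and 0.04 there, on the other side of 0 from their values against siNT. STRN was therefore the member above both control libraries with an interval above 0.

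The shortest FGFR1OP2 row, an isoform that ends at 27113677 on chromosome 12, gave a higher fold in siSET than the longest row. It stood at 101 scaled counts in PBS, 99.2 in OP449, 80.6 in siNT, 123 in siSET and 95 in siCIP2A. The siSET library was the highest and siNT the lowest. Against siNT the row stood at 0.61 [0.11 to 1.11] in siSET, from 72 and 68 reads, where the longest row stood at 0.08. The short row held 0.335 to 0.483 times as many reads as the longest row over the 5 libraries. Both rows can count the same reads, so the gap between their folds has no interval, and its cause was not tested.

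The comparison of siCIP2A with siNT asked the same of CIP2A. STRN3 was 1.54-fold lower in siCIP2A, at -0.63 [-0.85 to -0.41], from 284 and 409 reads. It was the 1 member called lower, against 10.1% of 6119 genes, and 2.89% of genes had a lower fold. STRN4 was also below siNT with an interval below 0, at -0.30 [-0.40 to -0.20] or 1.23-fold, just short of the threshold. No member was called higher, against 11.9% of genes. STRN stood at 0.19 [-0.08 to 0.46], FGFR1OP2 at 0.12 [-0.16 to 0.40], CTTNBP2NL at -0.07 [-0.23 to 0.09] and STK24 at -0.11 [-0.23 to 0.01]. The members' median was -0.09, against 0.02 over all genes. Beside PBS, STRN3 in siCIP2A stood at -0.27 [-0.51 to -0.04] and STRN4 at -0.04 [-0.14 to 0.06], so the fold of STRN3 was smaller there, at 1.21, and below the threshold. The comparisons of siSET and siCIP2A share the siNT library, in which STRN3 and STRN4 were at their highest and STRN at its lowest.

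The comparison of OP449 with PBS asked what differs after 12 h of the SET antagonist. STRN was 1.42-fold higher in OP449, at 0.51 [0.26 to 0.76], from 293 and 234 reads. It was the 1 member called higher, against 9.91% of 6113 genes, and 96.8% of genes had a lower fold. No member was called lower, against 8.13% of genes. FGFR1OP2 fell just short of the threshold at 0.32 [0.04 to 0.59], or 1.24-fold. STRN3 stood at 0.20 [-0.02 to 0.42], CTTNBP2NL at 0.14 [-0.03 to 0.31], STK24 at 0.02 [-0.11 to 0.15] and STRN4 at -0.02 [-0.12 to 0.09]. The members' median was 0.17, against 0.02 over all genes.

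STRN was thus called higher both in siSET against siNT and in OP449 against PBS, which share no library. Among the 6042 genes past the floor in both, 99 were called higher in both. These were 14.0% of the 707 called in siSET and 17.3% of the 573 called in OP449, and STRN was the only member among them.

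**Figure D2:**
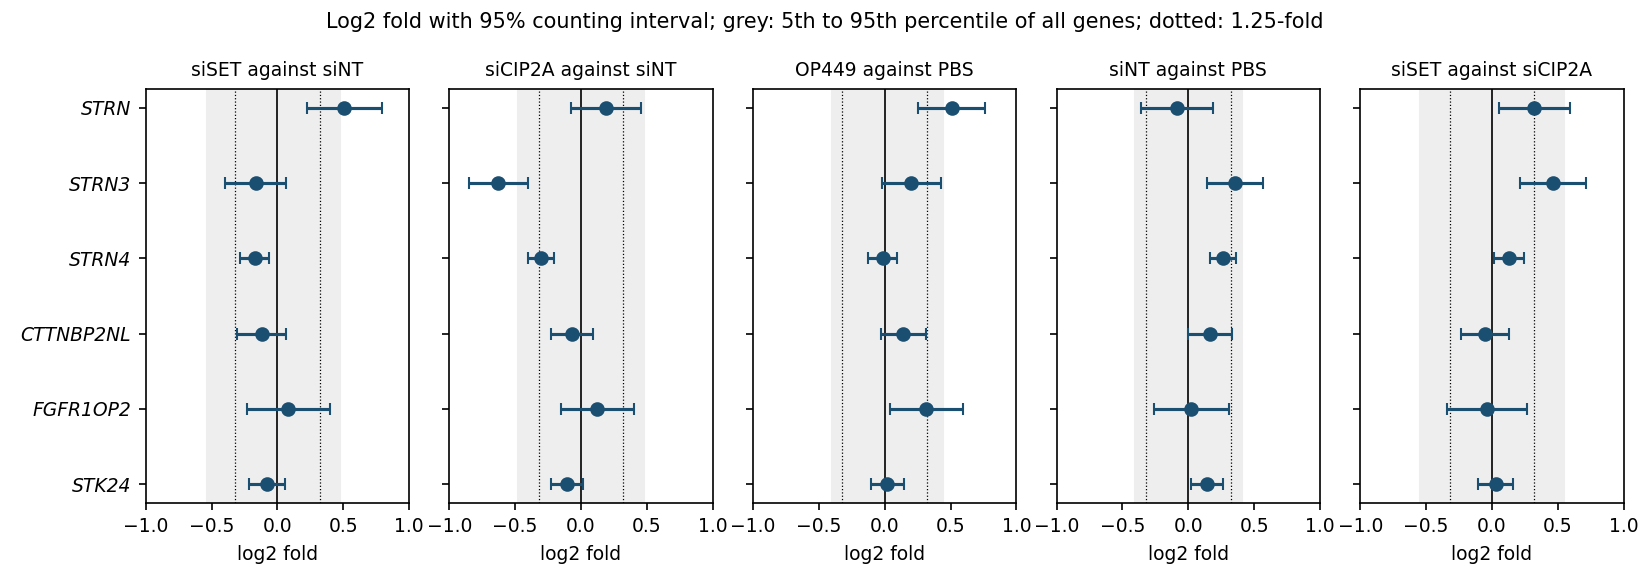
Log2 fold of each gene (points) with its 95% counting interval (bars) in the 5 comparisons. Grey bands span the 5th to 95th percentile of all genes past the floor, and dotted lines mark a difference of 25%. STRN lies beyond the band in siSET (0.51) and OP449 (0.51), and STRN3 below it in siCIP2A (-0.63).

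The siNT and PBS libraries, which differ in agent and in time, were also set against each other. STRN3 was higher in siNT than in PBS at 0.36 [0.14 to 0.57], the 1 member called higher, against 8.30% of 6093 genes. STRN4 stood at 0.26 [0.16 to 0.36] and STK24 at 0.14 [0.02 to 0.26], both with intervals above 0. CTTNBP2NL stood at 0.16, FGFR1OP2 at 0.02 and STRN at -0.08 [-0.36 to 0.19]. No member was called lower, against 8.44% of genes. Among the main rows of the 6 genes, of the folds between a treated library and its own control only those of STRN in siSET and OP449 and of STRN3 in siCIP2A were larger than this 1.28-fold gap in STRN3 between the controls.

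Set directly against siCIP2A, siSET had more STRN3, at 0.46 [0.21 to 0.71], the 1 member called higher where 12.0% of 6114 genes were. STRN stood at 0.32 [0.05 to 0.59], which is 1.248-fold and just under the threshold, and STRN4 at 0.13 [0.02 to 0.24]. No member was called lower, against 14.7% of genes. CTTNBP2NL stood at -0.05, FGFR1OP2 at -0.04 and STK24 at 0.03, each with an interval that spans 0.

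At a stricter threshold of 1.5-fold in either direction, STRN3 in siCIP2A against siNT was the only member called. That threshold was passed by 7.20% of genes in siSET and 6.11% in siCIP2A against siNT, 3.78% in OP449 and 3.05% in siNT against PBS, and 8.34% between siSET and siCIP2A. No member reached 2-fold in any comparison, against 1.20%, 1.11%, 0.605%, 0.394% and 1.67% of genes in the same order. With 1 in 6 members called at the 25% threshold in each comparison, their number is too small to set apart from these backgrounds.

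The balance between striatins within a library does not depend on any scale factor. Reads of STRN per read of STRN3 came to 0.516 in siNT (95% interval 0.435 to 0.611), 0.822 in siSET (0.681 to 0.992), 0.908 in siCIP2A (0.765 to 1.08), 0.701 in PBS (0.590 to 0.830) and 0.867 in OP449 (0.739 to 1.02). The siNT library had the lowest ratio, and its interval overlaps that of PBS alone. Relative to siNT the ratio was 1.59 times as high in siSET [1.23 to 2.06] and 1.76 times in siCIP2A [1.38 to 2.25]. Relative to PBS it was 1.24 times as high in OP449 [0.978 to 1.57] and 0.737 times in siNT [0.578 to 0.939]. In siSET the gene called against siNT was STRN, and in siCIP2A it was STRN3. The ratio in siSET divided by that in siCIP2A was 0.905 [0.700 to 1.17].

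Measured against STRN4 instead, STRN came to 0.152 reads per read in PBS, 0.219 in OP449, 0.120 in siNT, 0.192 in siSET and 0.168 in siCIP2A. OP449 had the highest share, 1.44 times that of PBS [1.19 to 1.74], and siSET had 1.60 times that of siNT [1.30 to 1.98]. In siCIP2A the share was 1.40 times that of siNT [1.15 to 1.71], and in siNT it was 0.786 times that of PBS [0.641 to 0.963]. The siNT library was thus the lowest of the 5. STRN3 per STRN4 read was lowest in siCIP2A, at 0.185, and 0.217 to 0.252 in the other libraries. In siCIP2A it was 0.797 times the siNT value [0.673 to 0.944].

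**Figure D3:**
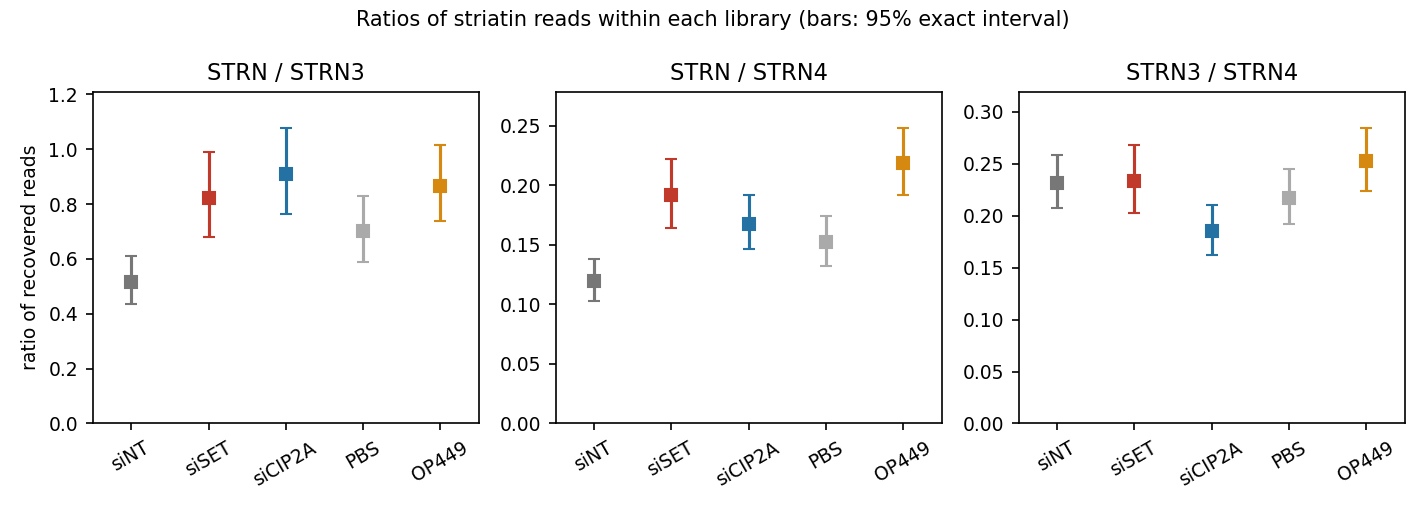
Ratio of recovered reads of a pair of striatin genes within each library (y axis, from 0; bars are 95% exact intervals), for STRN to STRN3, STRN to STRN4 and STRN3 to STRN4. STRN to STRN3 is lowest in siNT (0.516), STRN to STRN4 is highest in OP449 (0.219), and STRN3 to STRN4 is lowest in siCIP2A (0.185).

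Of 17 other STRIPAK subunits and partners listed, 8 were measured and 7 passed the floor. SIKE1, the module partner related to FGFR1OP2, stood at 758 scaled counts in PBS, 882 in OP449, 889 in siNT, 925 in siSET and 888 in siCIP2A. PBS was the low library. PPP2R1A, the main scaffold subunit of PP2A, stood at 3824, 3437, 4039, 4044 and 3550 in the same order, and was called in no comparison. TRAF3IP3 was near the limit of detection, at most 7.73. DYNLL2, a dynein light chain, stood at 0.34 [0.21 to 0.47] in siSET against siNT, the only call of this list in the 5 comparisons. Of all genes, 11.9% were called higher there, and 8.13% to 14.7% in a given direction over the 5 comparisons. With 7 genes past the floor, the list is too small to set apart from these shares. The chaperonin subunits CCT2, CCT4 and CCT7, which fold WD40 proteins such as striatins, and DYNLL1 were called in no comparison. The medians of the list ran from -0.04 in siCIP2A against siNT to 0.09 in siSET against siCIP2A.

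Of 23 other PP2A subunits and regulators listed, 14 were measured and all passed the floor. In siSET against siNT 2 were called higher and 2 lower, where 11.9% and 13.0% of all genes were. PPP2R2D, a B55-type subunit, had the largest fold of the list, at -0.72 [-1.01 to -0.44] there. It stood at 375 scaled counts in PBS, 321 in OP449, 415 in siNT, 251 in siSET and 356 in siCIP2A. The siSET library was the lowest of the 5, also against siCIP2A at -0.50 [-0.79 to -0.21], the 1 call of the list in that comparison, where 14.7% of genes were called lower. PPP2R5B, a B56-type subunit, was the other gene called lower, at -0.39 [-0.64 to -0.15], and stood at 0.44 [0.22 to 0.65] in siNT against PBS. In siCIP2A 2 were higher and none lower, against 11.9% and 10.1% of all genes. In OP449 1 was higher and 1 lower, against 9.91% and 8.13%. In siNT against PBS 1 was higher and 2 lower, against 8.30% and 8.44%. Counts this small among 14 genes do not set the list apart from all genes. PPP2R1B, the second scaffold isoform, and the methyltransferase gene LCMT1 were the higher genes in both siRNA libraries and the lower ones in siNT against PBS. The siNT library was the lowest of the 5 for both, at 640 scaled counts for PPP2R1B and 166 for LCMT1. The list's medians lay between -0.08 and 0.05.

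Among 31 genes of the Hippo pathway, which STRIPAK opposes, 18 were measured and 17 passed the floor. MAP4K4, a kinase that acts on the Hippo core and associates with STRIPAK, had the largest difference. It stood at 6193 scaled counts in PBS, 5648 in OP449, 8629 in siNT, 3464 in siSET and 6161 in siCIP2A. The siSET library was far the lowest and siNT the highest, and siSET stood at -1.32 [-1.39 to -1.25] against siNT and at -0.83 [-0.90 to -0.76] against siCIP2A. In siSET 4 genes of the list were called higher, the kinase gene MINK1, FRMD6, YAP1 and TEAD1, and MAP4K4 was the 1 called lower, where 11.9% and 13.0% of all genes were. MINK1 lies outside the rule for named genes and is named after its value was seen. TEAD1, the DNA-binding partner of YAP1, stood at 3616 in PBS, 3557 in OP449, 2819 in siNT, 4448 in siSET and 3800 in siCIP2A. YAP1 stood at 3354, 3724, 2595, 3343 and 3429 in the same order. The siNT library was the lowest for both, and siNT against PBS stood at -0.37 for YAP1 and -0.36 for TEAD1.

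In siCIP2A against siNT 3 genes of the Hippo list were called higher (SAV1, YAP1, TEAD1) and MAP4K4 lower, at -0.49 [-0.54 to -0.44], where 11.9% and 10.1% of all genes were called. In both comparisons the share of the list called in either direction was near that of all genes, which was 24.9% in siSET and 22.0% in siCIP2A. In OP449 the kinase gene TAOK1 was called higher at 0.63 [0.43 to 0.83] and the adaptor gene SAV1 lower at -0.33 [-0.50 to -0.16], against 9.91% and 8.13% of all genes. TAOK1 stood at 404 scaled counts in PBS and at 505 to 625 in the other libraries, so PBS was the low one. In siNT against PBS 3 were higher and 2 lower, against 8.30% and 8.44%. FRMD6 stood at 0.94 [0.83 to 1.04] in siSET against siCIP2A, the only gene of the list called higher there, and SAV1 and MAP4K4 were lower, against 12.0% and 14.7%. The list's medians ran from -0.11 to 0.09.

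Of 18 partners of the GCKIII kinases and striatins, 6 were measured and all passed the floor. STK38L, a kinase downstream of GCKIII kinases, was called higher in siSET at 0.41 [0.12 to 0.70], where 11.9% of all genes were. It was also higher in OP449 at 0.44 [0.18 to 0.70], against 9.91%, and lower in siCIP2A at -0.34 [-0.64 to -0.05], against 10.1%. The list's largest fold was that of STK38L in siSET against siCIP2A, at 0.75 [0.46 to 1.05], where 12.0% of genes were called higher. CALM3 was called lower in OP449, at -0.34 [-0.40 to -0.29], against 8.13% of genes. The levels of STK38L were 260 scaled counts in PBS, 353 in OP449, 254 in siNT, 337 in siSET and 200 in siCIP2A. Thus siSET and OP449 were its high libraries, as for STRN. PXN, which encodes the focal adhesion protein paxillin, stood at 5474, 5140, 5539, 4997 and 6351 in the same order. It was lowest in siSET and highest in siCIP2A, at -0.35 [-0.41 to -0.28] between them, where 14.7% of all genes were called lower. Counts this small among 6 genes do not set the list apart from all genes. The list's medians ran from -0.12 in siCIP2A against siNT to 0.10 in siSET against siCIP2A.

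**Figure D4:**
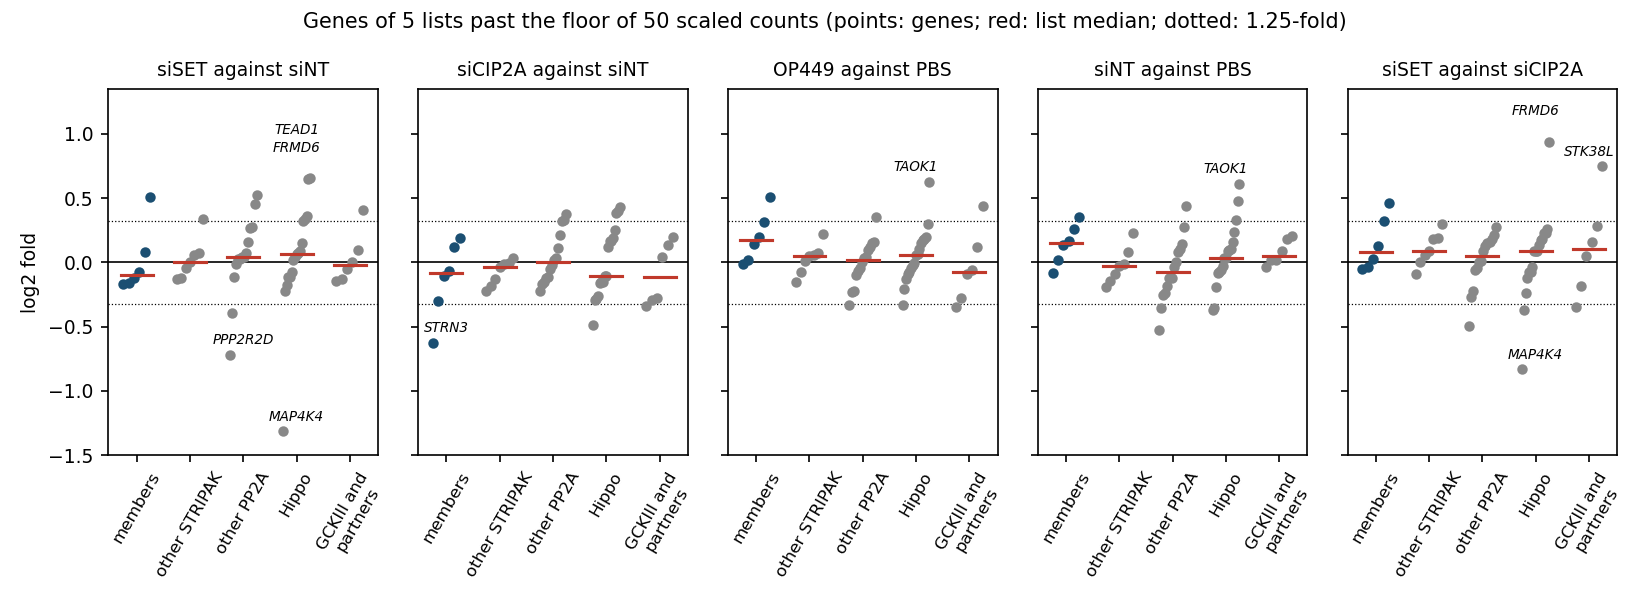
Log2 fold (y axis) of the genes past the floor in 5 lists, in the 5 comparisons. Each point is a gene, the red bar is the list's median, dotted lines mark a difference of 25%, and genes at 0.6 or beyond on the log2 scale are named. MAP4K4 in siSET against siNT (-1.32) is the point farthest from 0, and every list's median lies between -0.12 and 0.17.

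The genes whose profile over the 5 libraries was most like that of STRN were INTS5, ZNF37A, AGMAT, VSTM4 and ZNF230. Likeness was the root mean square difference of log2 profiles, each centred on its own mean, over 5 libraries and 6109 genes. It ran from 0.04 for INTS5 to 0.06 for ZNF230. Counting error was not taken into account, so the order of genes this close is uncertain. AGMAT, VSTM4 and ZNF230 stood near the floor, at 54.4 to 83.7 scaled counts. INTS5, a subunit of the Integrator complex, stood at 543 scaled counts in PBS, 706 in OP449, 491 in siNT, 679 in siSET and 561 in siCIP2A. For STRN3 they were SH3PXD2A, TRIM62, TDG, RNF149 and GPR180, from 0.05 to 0.06. SH3PXD2A, a scaffold of invadopodia, stood at 1200, 1372, 1484, 1420 and 1060 in the same order, with siCIP2A the low library.

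RefSeq promoters on GRCh38, from 250 bases before to 50 after the start, were at hand for 5 of the 6 genes, STRN4 being the exception. The MYC site CACGTG was found on either strand in none of the 5, while 7.26% of all 35116 promoters held it. The letters GGGCGG were found in all 5, against 45.0% of promoters. A gene was counted if any of its promoters held the letters, while the percentages are over single promoters. The counts and percentages are therefore not like for like.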

How the data were processed

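RNA from MDA-MB-231 cells was copied with oligo-dT and read on an Illumina GAII, per the labels' protocols. The submitters' processing notes name hg19, CASAVA and Bowtie 1.0.0. The sources used here do not say which program counted the reads, whether strand was used or how values were scaled. The deposited table gives a scaled signal for each RefSeq transcript, made by the authors.

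Dividing by what 1 read is worth gave whole reads for 100% of values (tolerance 0.001 reads). The table used here held 16383 rows from chromosomes 1, 2 (in part) and 10 to 19; genes elsewhere were not analysed here. Accessions gave current symbols for 15739 rows, and the row with the highest mean stood for each gene. Overlapping and antisense genes may share reads. Log2 folds used a pseudocount of 1 and a floor of 50 scaled counts. Intervals came from SciPy 1.17.1. Interval coverage and calls were tested on simulated Poisson counts, whose planted changes were larger than any member's fold. Recovery of smaller changes was not tested. Groups came from the treatment labels.

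Every member is named. Some partner genes are not reported here and were left out of the lists, their counts and medians. From the lists, all measured STRIPAK genes and up to 4 genes per other list and comparison, those with the largest folds, could be named, with MINK1 added. Members, lists, thresholds and rules were chosen with earlier results of these data known. Transcript lengths and exons came from GENCODE 29 (GRCh38), with no coordinate converted.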

Additional observations from a re-analysis of the deposited data

How the results depend on the processing

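The count of members called was 1 in each comparison. It was 0 at 1.5-fold in every comparison but siCIP2A against siNT, and 0 at 2-fold in all 5. With PBS as the control it was 0 for siCIP2A, where STRN3 fell under the threshold and 22.4% of all genes were called. It was 2 under median-of-ratios scaling in siCIP2A against siNT (STRN4 joining), where 21.8% of all genes were called. It was also 2 under that scaling in siSET against siCIP2A (STRN joining), and under upper-quartile scaling there, each against 26.7%. With equal totals it was 2 in OP449 (FGFR1OP2 joining), against 18.4%. A binomial test on reads, exact and with Benjamini-Hochberg adjustment at 0.05, was added after seeing the data. It compares libraries, not conditions. It called 1832, 2060, 1656, 1607 and 2079 genes in siSET, siCIP2A, OP449, siNT against PBS and siSET against siCIP2A, and 2 members in siSET, siCIP2A and siNT against PBS, where STRN4 joined. Floors of 200 and none, a pseudocount of 10 and summed transcript rows left the count at 1. So did requiring an interval that excludes equality in addition to the 25% threshold, which 14.0% to 22.5% of all genes met. Some members with such an interval, STRN4 in siSET against siNT among them, fell short of that threshold. Of 222 recomputed log2 folds of single members, 211 stayed within the counting interval, 11 moved beyond it and 0 of the called ones reversed. No scaling moved the median of all genes by over 0.03. No paired analysis was possible because each group has 1 library. Depth limits folds of STRN and FGFR1OP2 most, with 149 to 293 reads per library.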
